A study of Mus musculus with 6 samples.

Results

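The genes described here encode 9 components and regulators of complement: C1ra, C1s1, C4b, C3, Cfb, Serping1, Cd55, Cd59a and Clu. They were chosen by name, with no threshold on any value, from the 27151 gene IDs of the deposited table. The list was drawn up with earlier results of the same 6 libraries known, so the changes and adjusted p-values of its members describe these libraries and are not independent evidence. All 9 had a row. With a filter of a mean FPKM (fragments per kilobase of exon, scaled to library size) of at least 1 over the 6 libraries, 6 were kept and tested, and C3, C4b and Cfb were not.

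The RNA came from mouse granulosa cells, which line the ovarian follicle around the oocyte and produce oestradiol and progesterone. There were 3 libraries of cells kept with GSK4112, a small-molecule agonist of the circadian nuclear receptor NR1D1 (REV-ERBα), and 3 control libraries of cells kept without it. The cells of both groups were released by puncture of follicles in M2 solution with milrinone, a phosphodiesterase inhibitor, grown in serum-containing DMEM/F12 for 24 h and starved of serum for 12 h, and treatment then lasted 24 h with fresh medium every 12 h. The submitters' design text says in vivo, whereas the protocols describe cells in culture. Strain, age and vehicle are not in the labels, nor is it said that each library is a separate animal or culture. The p-values therefore rest on a spread that may be technical. The study asked how activation of NR1D1 affects the endocrine function of granulosa cells.

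Complement is a cascade of plasma proteins that tags surfaces for removal and can pierce membranes. In the classical pathway the recognition protein C1q carries the serine proteases C1r and C1s. C1r activates C1s, and C1s cleaves C4 and C2 to build an enzyme that splits C3. In the alternative pathway factor B (Cfb) forms the enzyme that amplifies C3 cleavage. The soluble C1 inhibitor (Serping1) and membrane proteins such as CD55 and CD59 hold the cascade in check on the body's own cells.

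The libraries held the equivalent of 16559256 to 18158273 fragments, as read from the steps of the FPKM values. Of 10 granulosa markers 9 were tested, 2 fell, none rose and 7 did not pass an adjusted p under 0.05 in limma. In that fit 0.624% of all 12181 genes tested fell. The log2 change was below 0 in 8 of the 9 markers, beside 4766 of the 12181 genes. Summed over the 10 markers, FPKM was 2010, 2691 and 2915 in GSK4112 libraries and 2708, 3399 and 3265 in control libraries. The most abundant was Inha, the inhibin alpha subunit gene, at 1370, 2060 and 2245 FPKM in GSK4112 libraries and 1834, 2173 and 2101 FPKM in control libraries. The 2 that fell were Hsd17b1, an oestradiol synthesis enzyme, which averaged 25.3 ± 3.94 FPKM with GSK4112 and 64.3 ± 7.25 FPKM in control, and Fst (follistatin), which averaged 24.0 ± 2.38 FPKM with GSK4112 and 73.6 ± 15.4 FPKM in control (SD, n = 3 each; adjusted p = 0.0187 each in limma). Cyp11a1, the first enzyme of steroid synthesis, was at 446, 388 and 419.9 FPKM with GSK4112 and at 559, 889 and 805 FPKM in control, with no overlap (adjusted p = 0.1029 in limma). In both groups the replicate 1 library differed from the other two in several marker sums. The summed FPKM of 10 theca and stroma markers was 153 in GSK4112 replicate 1 and 82.5 and 95.7 in the other GSK4112 libraries, against 277 in control replicate 1 and 60.1 and 62.2 in the other control libraries. Most of these sums came from Acta2. The sum of 13 macrophage and leukocyte markers was 41.7 in GSK4112 replicate 1 and 18.3 and 21.4 in the other GSK4112 libraries, against 44.6 in control replicate 1 and 15.3 and 8.47 in the other control libraries. Most of it came from Lyz2. The leukocyte gene Ptprc and the macrophage genes Adgre1 and Cd163 were at 0 to 0.13 FPKM in all 6 libraries. Others were present: Cd68 was at 5.69, 4.56 and 5.54 FPKM with GSK4112 and at 4.47, 2.67 and 2.199 FPKM in control, higher in every GSK4112 library (adjusted p = 0.2006 in limma). Such a separation upward occurred in 1910 of all 12181 genes tested. Tyrobp was at 0.905 to 2.40 FPKM with GSK4112 and at 0.721 to 1.65 FPKM in control, and Csf1r at 0.294 to 1.07 FPKM with GSK4112 and at 0.258 to 0.823 FPKM in control. With the marker of the highest mean over all 6 libraries in parentheses, the sums were 0.535 to 1.07 with GSK4112 and 0.613 to 0.96 in control for endothelial markers (Egfl7), 1.62 to 5.95 with GSK4112 and 2.56 to 6.67 in control for surface epithelium (Msln), and 0.41 to 1.52 with GSK4112 and 0.109 to 3.34 in control for oocytes (Zp3). Zp3 was at 0 in 3 of the 6 libraries. The part of the marker differences in the results below was not tested, and results are also given without both replicate 1 libraries.

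Of the 6 members tested with limma, C1s1 fell and none rose, and the other 5 did not pass an adjusted p under 0.05. In the same fit 0.624% of the 12181 genes were called lower and 0.41% higher, 1.03% in all. Under median-of-ratios scaling 105 genes were lower and 39 higher, against 76 lower and 50 higher as reported, and C1s1 was again the only member called. Without adjustment 2 members had a p under 0.05, both lower (C1ra and C1s1), beside 17.0% of all genes in either direction. With limma-voom on recovered fragments 1 member was lower and 0 higher, beside 0.789% of all genes called lower. The median log2 change of the 6 was -0.092, beside 0.054 over all genes tested. The GSK4112 values of C1ra and C1s1 all lay below the control values, and in the other 4 tested members the groups overlapped. Such a separation downward occurred in 7.9% of all genes tested, and a separation upward in 1910 of the 12181.

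C1s1 encodes the protease C1s, which cleaves C4 and C2 (ENSMUSG00000038521; GRCm38 chromosome 6, 124530345 to 124542359, minus strand). It stood at 27.3, 29.4 and 30.1 FPKM in GSK4112 libraries and at 43.9, 58.95 and 60.8 FPKM in control libraries. These values rested on 1446, 1524 and 1639 fragments with GSK4112 and on 2493, 3184 and 3163 fragments in control. All GSK4112 libraries lay within 3 FPKM of each other, and the control library closest to them was replicate 1. The means were 28.96 ± 1.45 FPKM with GSK4112 and 54.5 ± 9.27 FPKM in control (SD, n = 3 each), so the GSK4112 mean was 0.531 of the control mean. On the log2(FPKM + 1) scale the change was -0.88 ± 0.135 (SE; 95% interval -1.20 to -0.55), and limma gave an adjusted p of 0.046. In bulk RNA, fewer cells that make a transcript and less transcript per cell cannot be told apart.

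The call of C1s1 was close to the threshold. It was lost without a filter (adjusted p = 0.116), under quantile normalization (0.0625), in limma without the trend (0.0541) and without any single library other than control replicate 1. The first 3 settings called 0.0958, 1.28 and 0.919% of all genes. The adjusted p was 0.078, 0.222 and 0.2168 without GSK4112 replicates 1, 2 and 3, where 1.26, 0.0 and 0.0% of all genes were called. It was 0.1379 and 0.1584 without control replicates 2 and 3, where 0.0657 and 0.0% were called, and C1s1 stayed called without control replicate 1, where 1.13% were. A block for the replicate number gave C1s1 an adjusted p of 0.0087, beside 3.82% of all genes called lower. Leaving out both replicate 1 libraries gave 0.0036 and a log2 change of -0.98, beside 3.8% of all genes called lower.

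C1ra encodes C1r, the protease that activates C1s (ENSMUSG00000055172; chromosome 6, 124512405 to 124523443, plus strand). Its values were 8.95, 11.2 and 11.1 FPKM in GSK4112 libraries and 13.8, 14.3 and 14.0 FPKM in control libraries. The highest GSK4112 library lay below the lowest control library, and the control libraries differed little. The log2 change was -0.40 ± 0.101 (SE; 95% interval -0.64 to -0.16), which missed the threshold (adjusted p = 0.1225 in limma, 0.0549 with the replicate block and 0.0816 without both replicate 1 libraries). A 2-sided exact permutation test of the 6 values gave p = 0.1 for C1ra and for C1s1, which is the lower limit with 3 libraries per group. The C1s1 level per C1ra level, a ratio of FPKM values, was 3.06, 2.64 and 2.72 in GSK4112 libraries and 3.19, 4.14 and 4.34 in control libraries (2-sided exact permutation p = 0.1). The ratio was lower in every GSK4112 library, with a narrow gap between GSK4112 replicate 1 and control replicate 1. This ratio was chosen after the values were seen.

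**Figure D1:**
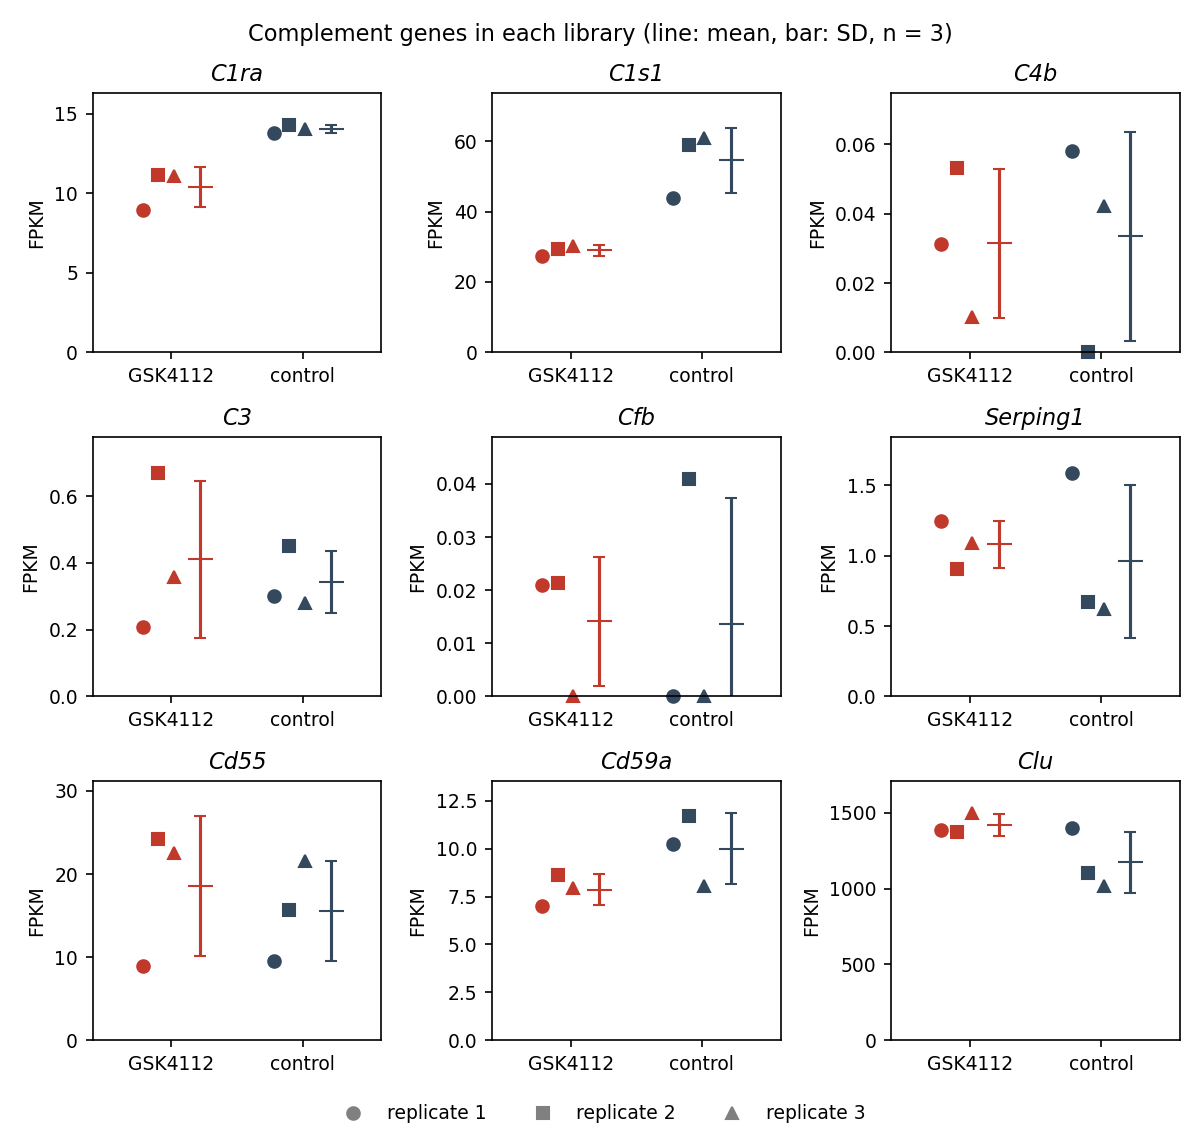
FPKM of the 9 complement genes (vertical axis, linear from 0, own scale per gene) in 3 GSK4112 and 3 control libraries. Symbols mark the replicate number, the horizontal mark is the mean and the bar the SD (n = 3, bars cut at 0). C1s1 and C1ra lay lower in all 3 GSK4112 libraries, and Cd55 was lowest in the replicate 1 library of both groups.

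C1ra and C1s1 are neighbours that point toward each other, with 6901 bases between their ends. Their promoter windows are shown because these are the 2 members whose groups did not overlap and which had the same direction. RefSeq gives 250 bases before and 50 bases after each start on GRCm38.p6. Capitals mark any match to the motifs searched on both strands: AGGTCA, the core sequence that NR1D1 and other nuclear receptors bind, TTCNNNGAA for STAT factors, GGG, any 5 bases and CC for NF-kB, and TTTC, any 2 bases and TTTC for interferon-stimulated elements. No 2 matches in the printed windows overlap. The C1ra window is chr6:124512371-124512670 on the plus strand, whose RefSeq start lies downstream of the GENCODE start, and the C1s1 window is chr6:124542310-124542609 on the minus strand, 1 of 2 RefSeq starts.
C1ra: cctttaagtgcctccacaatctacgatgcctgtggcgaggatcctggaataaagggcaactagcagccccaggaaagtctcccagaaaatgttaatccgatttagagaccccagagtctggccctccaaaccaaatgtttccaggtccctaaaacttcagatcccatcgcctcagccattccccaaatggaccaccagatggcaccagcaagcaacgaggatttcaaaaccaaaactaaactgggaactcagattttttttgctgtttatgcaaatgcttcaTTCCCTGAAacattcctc
C1s1: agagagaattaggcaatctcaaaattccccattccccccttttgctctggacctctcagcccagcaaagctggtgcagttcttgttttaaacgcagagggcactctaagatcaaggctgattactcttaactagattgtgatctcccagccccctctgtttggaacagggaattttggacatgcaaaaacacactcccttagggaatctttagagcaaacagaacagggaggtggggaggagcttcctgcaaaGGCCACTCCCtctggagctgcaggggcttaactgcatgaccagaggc
The C1ra window held 1 match, to the STAT motif, and the C1s1 window 1 match, to the NF-kB motif. Of the 5 members with a RefSeq window (C3, C1ra, C1s1, Cd55 and Cd59a), 1 held AGGTCA (C3), 1 the STAT motif, 4 the NF-kB motif and 1 the interferon motif (Cd59a). Of all 32851 windows, 16.3% held AGGTCA, 8.3% the STAT motif, 50.8% the NF-kB motif and 3.44% the interferon motif. No motif searched was in both the C1ra and the C1s1 window. A match is a match of letters and not a measured binding site.

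In the mouse the C1r and C1s genes are duplicated, and the copies lie in the same stretch of chromosome 6. C1s2 stood at 2.58, 2.47 and 2.64 FPKM in GSK4112 libraries and at 3.54, 4.90 and 5.04 FPKM in control libraries, again with no overlap. Its log2 change was -0.61 ± 0.135 (SE; adjusted p = 0.0962 in limma), and it was called lower with the replicate block (0.0401). C1rb was at 0.804, 0.845 and 0.995 FPKM with GSK4112 and at 0.794, 1.03 and 1.19 FPKM in control, below the filter by its mean. C1rl, a related protease gene beside C1ra, was at 4.42, 3.41 and 2.71 FPKM with GSK4112 and at 5.53, 4.60 and 4.21 FPKM in control (adjusted p = 0.326). The genes that flank these copies overlapped between groups. Clstn3 averaged 34.3 FPKM with GSK4112 and 35.9 FPKM in control (adjusted p = 0.7984 in limma). Lpcat3, next to C1s2, averaged 32.9 FPKM with GSK4112 and 33.2 FPKM in control (adjusted p = 0.9551). Emg1, beyond Lpcat3, averaged 11.4 FPKM with GSK4112 and 12.1 FPKM in control (adjusted p = 0.6158).

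These copies are close in sequence, and the way the authors counted fragments that match more than 1 gene is not given in the sources used here. Stretches of at least 95% identity to transcripts of other genes, mostly C1s2, covered 92.9% of the longest C1s1 transcript, and C1rb matched 81.5% of C1ra. In addition 576 exonic bases of C1s1 overlap the antisense gene Gm16567, which had no row in the deposited table. The ratio of C1s1 to C1s2 FPKM was 10.6, 11.9 and 11.4 in GSK4112 libraries and 12.4, 12.0 and 12.1 in control libraries. The ratio varied little and was slightly lower in every GSK4112 library, and whether its fragments are its own was not tested. Summed over C1s1 and C1s2, fragments scaled to library size (CPM) were 92.4, 98.6 and 101 with GSK4112 and 147, 198 and 204 in control. Summed over C1ra and C1rb they were 28.6, 35.3 and 35.4 with GSK4112 and 43.0, 44.96 and 44.7 in control. In both sums every GSK4112 library lay below every control library (2-sided exact permutation p = 0.1 each). C1s1 and C1ra supply most fragments of these sums, and how fragments were split within a pair was not tested.

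**Figure D2:**
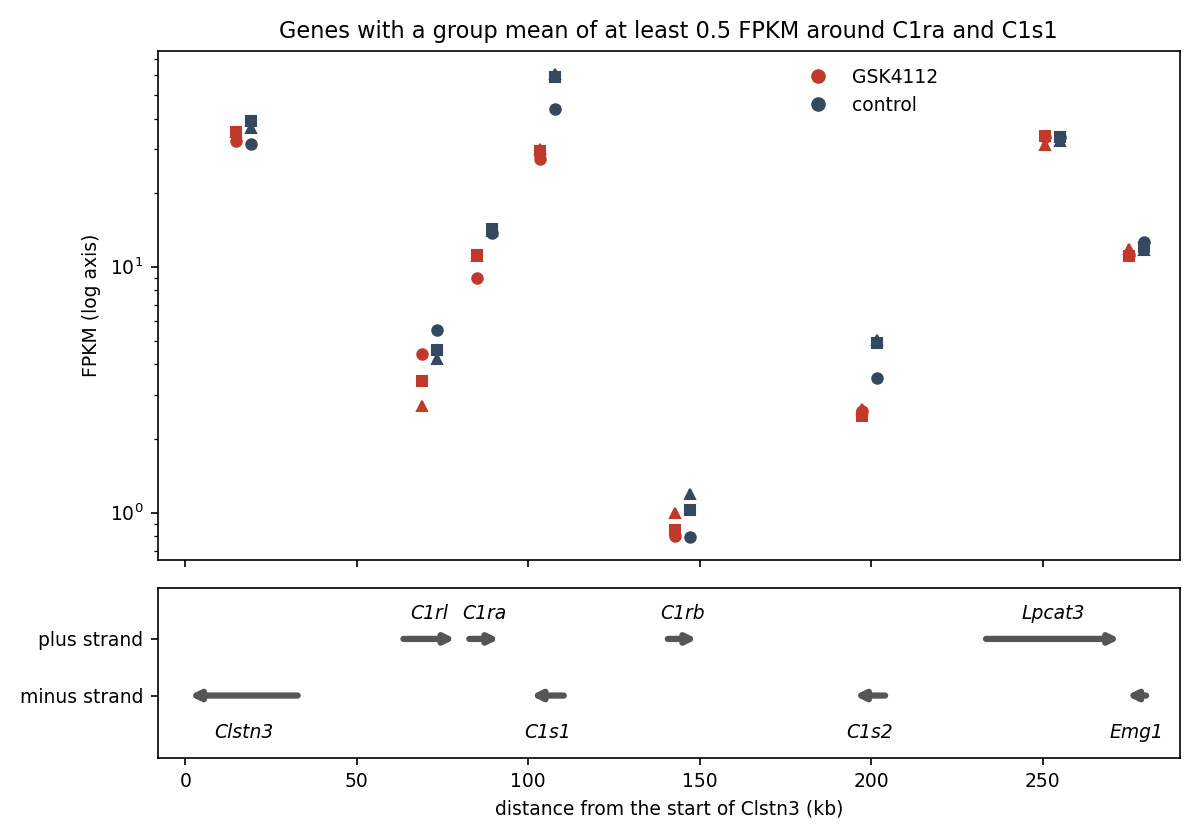
Upper panel: FPKM on a log axis of genes with a group mean of at least 0.5 FPKM around C1ra and C1s1, in 3 GSK4112 libraries (red, left of each pair) and 3 control libraries (dark blue), with symbols for replicates 1 (circle), 2 (square) and 3 (triangle). Lower panel: their extent and strand, in kb from the start of Clstn3. C1ra, C1s1 and C1s2 lay lower in all GSK4112 libraries, while the flanking genes overlapped between groups.

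The genes of C3, C4 and factor B were low, all below 1 FPKM. C3, the central component of all pathways (ENSMUSG00000024164; chromosome 17, 57203970 to 57228136, minus strand), stood at 0.207, 0.669 and 0.358 FPKM in GSK4112 libraries and at 0.2998, 0.451 and 0.281 FPKM in control libraries. These values came from 18, 57 and 32 fragments with GSK4112 and from 28, 40 and 24 fragments in control, and the groups overlapped. In the fit without a filter C3 had an adjusted p of 0.8689. C4b, the C4 gene (chromosome 17, 34728380 to 34743882, minus strand), had 3, 5 and 1 fragments with GSK4112 and 6, 0 and 4 fragments in control. Cfb (chromosome 17, 34856374 to 34862518, minus strand) had 1, 1 and 0 fragments with GSK4112 and 0, 2 and 0 fragments in control. For C4b and Cfb, with counts around a floor of 3 fragments per library, no fold is given and a difference was not detectable.

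Counting could also have lowered C4b and Cfb. All of the longest C4b transcript matched the neighbouring gene C4a at 95% identity or more. In GENCODE M21, 2246 bases of Cfb exons lie within exons of Gm20547, which spans Cfb and had no row in the deposited table. C4a stood at 0.524, 0.467 and 0.306 FPKM in GSK4112 libraries and at 0.426, 0.243 and 0.281 FPKM in control libraries. C2, the partner of C4 in the classical pathway, was at 0.733, 0.2495 and 0.386 FPKM with GSK4112 and at 0.384, 0.344 and 0.605 FPKM in control. Both overlapped between groups. The 3 chains of the recognition protein C1q were low as well: C1qa, C1qb and C1qc reached at most 0.37 FPKM in any GSK4112 library and 0.607 FPKM in any control library. Per kilobase, C1ra and C1s1 were thus above 8 FPKM in every library, in which C1q, C2, C3 and C4 transcripts were below 1 FPKM.

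Serping1 encodes C1 inhibitor, which inactivates C1r and C1s (ENSMUSG00000023224; chromosome 2, 84765387 to 84775444, minus strand). It was at 1.25, 0.909 and 1.09 FPKM in GSK4112 libraries and at 1.59, 0.673 and 0.620 FPKM in control libraries, from 24 to 67 fragments. Its mean of 1.02 over the 6 libraries put it just inside the filter. Control replicate 1 was the highest library and the groups overlapped, with a log2 change of 0.12 ± 0.219 (SE; 95% interval -0.41 to 0.64; adjusted p = 0.8208). Without both replicate 1 libraries the change was 0.28 (adjusted p = 0.3033).

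Cd55 encodes decay-accelerating factor, which dissolves the enzymes that split C3 (ENSMUSG00000026399; chromosome 1, 130439027 to 130462744, minus strand). Its values were 8.89, 24.2 and 22.5 FPKM in GSK4112 libraries and 9.51, 15.7 and 21.5 FPKM in control libraries. The replicate 1 libraries were the lowest in both groups, and their values differed less from each other than from the rest of their own group. The log2 change was 0.19 with an SE of 0.423 and a 95% interval from -0.82 to 1.20, the widest interval of the 6 tested members (adjusted p = 0.8528). With the block the SE was 0.14 (adjusted p = 0.4395), and without both replicate 1 libraries the change was 0.33 (adjusted p = 0.2485). The sign turned without GSK4112 replicate 2 (-0.052), without GSK4112 replicate 3 (-0.003) and without control replicate 1 (-0.106). Its copy Cd55b had at most 0.108 FPKM in any library. Of the longest Cd55 transcript 19.0% matched Cd55b at 95% identity or more, and 102 exonic bases overlap the antisense gene Gm16083, which had at most 0.474 FPKM.

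Cd59a encodes CD59, which blocks assembly of the membrane attack complex (ENSMUSG00000032679; chromosome 2, 104095801 to 104115354, plus strand). It stood at 7.02, 8.60 and 7.97 FPKM in GSK4112 libraries and at 10.3, 11.7 and 8.07 FPKM in control libraries. Control replicate 3 lay among the GSK4112 values, and the other control libraries lay above them. The log2 change was -0.30 ± 0.143 (SE; 95% interval -0.64 to 0.04; adjusted p = 0.351). Its copy Cd59b was at 0.546, 0.836 and 0.929 FPKM with GSK4112 and at 0.508, 0.535 and 0.509 FPKM in control. The Cd59b values were all higher with GSK4112, but the gene was below the filter and was not tested in the filtered fit. Among the 12181 genes tested, 1910 were higher in every GSK4112 library.

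Clu encodes clusterin, a secreted chaperone that also binds terminal complement proteins and hinders their insertion into membranes (ENSMUSG00000022037; chromosome 14, 65968483 to 65981547, plus strand). It was by far the most abundant member, and the 11th most abundant of all 27151 IDs by mean FPKM. It stood at 1386, 1372 and 1501 FPKM in GSK4112 libraries and at 1399, 1101 and 1020 FPKM in control libraries. Control replicate 1 lay within the GSK4112 range and the other control libraries below it. The log2 change was 0.29 ± 0.158 (SE; 95% interval -0.09 to 0.66; adjusted p = 0.4076). Leaving out both replicate 1 libraries gave 0.44 (adjusted p = 0.1434). Of all fragments, 0.477, 0.472 and 0.516% belonged to Clu in GSK4112 libraries and 0.481, 0.378 and 0.35% in control libraries.

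Per kilobase, the order of levels was the same in both groups: Clu, C1s1, Cd55, C1ra, Cd59a, Serping1, C3, C4b and Cfb. The ranges of neighbours in this order were apart except for Cd55 with C1ra and C4b with Cfb, in each group. Within libraries of the same replicate number, C1ra, C1s1 and Cd59a were lower with GSK4112 in 3 of 3 pairs. For C1ra and C1s1, whose groups did not overlap, any pairing of the libraries gives this, so it adds nothing to that separation. Serping1, Cd55 and Clu were lower in the replicate 1 pair and higher in the other pairs. For Clu the log2 difference was -0.013, 0.318 and 0.558 in pairs 1, 2 and 3, and for Serping1 it was -0.203, 0.191 and 0.366.

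**Figure D3:**
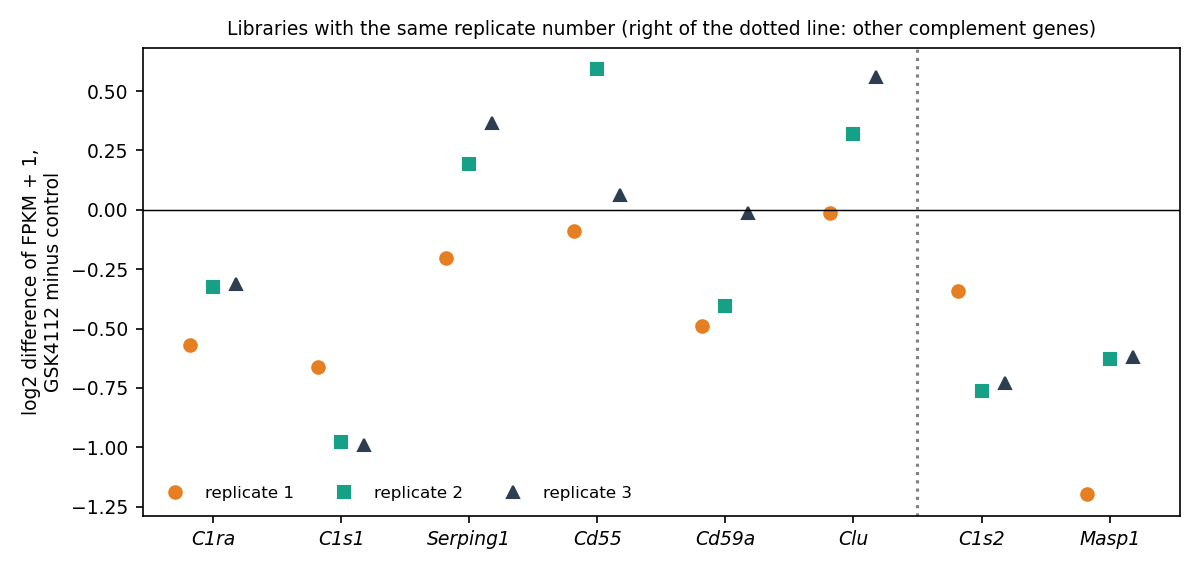
Difference of log2(FPKM + 1), GSK4112 minus control, between libraries of the same replicate number, for the 6 tested members (left of the dotted line) and for C1s2 and Masp1. Points of C1ra, C1s1, Cd59a, C1s2 and Masp1 lie below 0 in all 3 pairs. For C1ra, C1s1 and C1s2, whose groups did not overlap, any pairing gives this. Points of Serping1, Cd55 and Clu lie below 0 in pair 1 only.

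A further 49 complement genes are reported by role, and 38 of them had a row in the table used here. Of these, 9 were kept by the filter, and in limma none rose, none fell and 9 did not pass. Without adjustment 1 of the 9 had a p under 0.05, C1s2, which was lower, beside 17.0% of all genes in either direction. With limma-voom 0 of the 9 were called. With the replicate block 2 fell (C1s2 and Masp1), beside 3.82% of all genes called lower in that fit. Leaving out both replicate 1 libraries gave the same 2, both lower. The other 29 were below the filter and had at most 1.63 FPKM in any library (Itgb2).

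Among regulators outside the 9 members, Cr1l (the mouse membrane regulator Crry) was at 5.31, 4.73 and 4.83 FPKM with GSK4112 and at 5.02, 4.47 and 4.67 FPKM in control (adjusted p = 0.7893). Csmd1, a large membrane regulator below the filter, was at 0.0466, 0.0254 and 0.0272 FPKM with GSK4112 and at 0.2199, 0.177 and 0.1895 FPKM in control, from 32 fragments in all with GSK4112 and 194 in control. It was lower in every GSK4112 library and was not tested in the filtered fit. The fit without a filter called none of the 38 other complement genes with a row.

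Masp1, a protease gene of the lectin pathway related to C1r and C1s, was the most abundant of the other starting components. It stood at 13.97, 31.99 and 35.3 FPKM in GSK4112 libraries and at 33.4, 50.04 and 54.8 FPKM in control libraries. Each group had its lowest value in replicate 1, and control replicate 1 lay among the GSK4112 values. The log2 change was -0.82 ± 0.361 (SE; adjusted p = 0.317 in limma, 0.0231 with the block and 0.0212 without both replicate 1 libraries). The change was -0.63 without both replicate 1 libraries, -0.41 without GSK4112 replicate 1 alone (adjusted p = 0.3607), and from -1.05 to -0.41 over all settings run. Its gene partner in the pathway, Masp2, was at 0.201 to 0.261 FPKM with GSK4112 and at 0.193 to 0.291 FPKM in control.

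**Figure D4:**
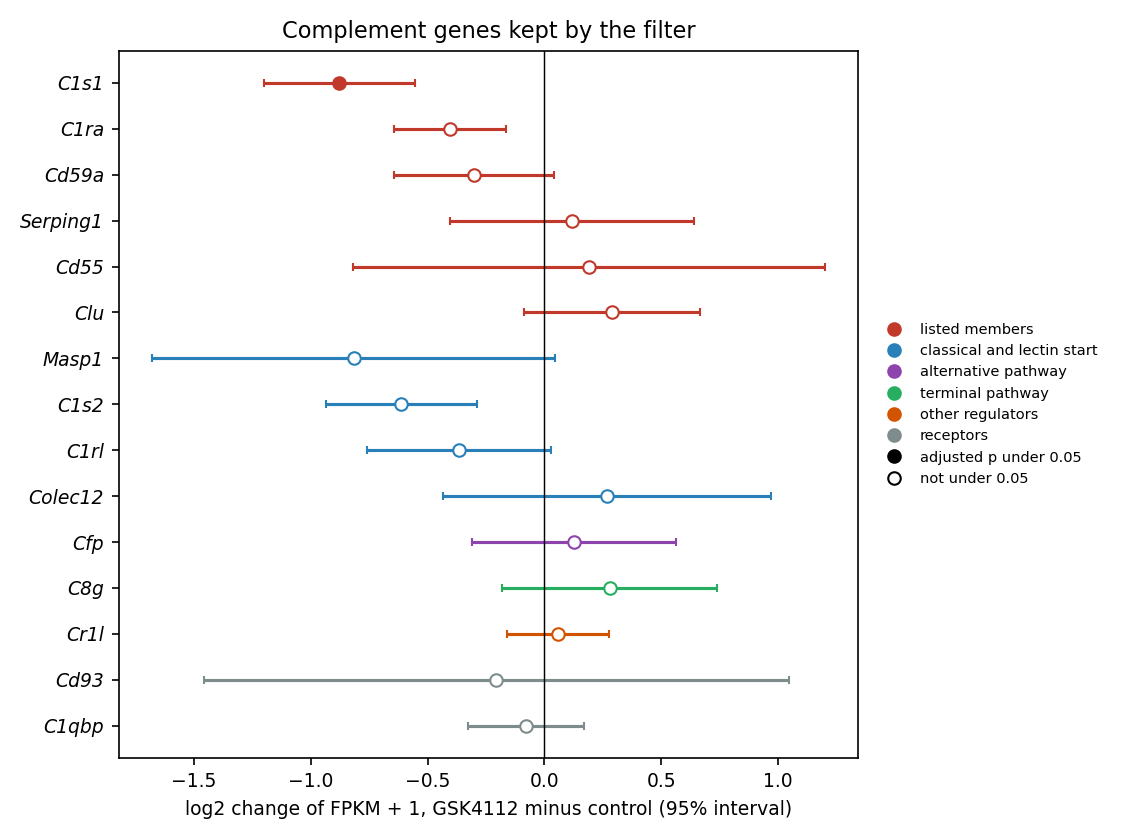
Log2 change of FPKM + 1, GSK4112 minus control (horizontal axis), with its 95% interval in limma, for the 6 members and 9 other complement genes kept by the filter. Filled points passed an adjusted p under 0.05. C1s1 is filled, and the intervals of C1ra and C1s2 also lie below 0.

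Of the alternative pathway, Cfp (properdin, which stabilises the C3-splitting enzyme) averaged 3.72 FPKM with GSK4112 and 3.29 FPKM in control (adjusted p = 0.7652). Of the terminal pathway 1 of 4 genes with a row passed the filter, C8g, at 2.06, 3.72 and 2.12 FPKM with GSK4112 and at 2.14, 1.94 and 1.73 FPKM in control (adjusted p = 0.5048). Hc, the mouse C5 gene, was at 0.142, 0.0771 and 0.129 FPKM with GSK4112 and at 0.0615, 0.0185 and 0.0288 FPKM in control, from 2 to 15 fragments a library. Like Cd59b, Hc was higher in every GSK4112 library and below the filter. Among receptors, C1qbp, a mostly mitochondrial protein that binds C1q, averaged 31.9 FPKM with GSK4112 and 33.8 FPKM in control (adjusted p = 0.7456). Cd93 was at 4.85, 1.76 and 1.43 FPKM with GSK4112 and at 7.23, 1.58 and 1.85 FPKM in control, high in the replicate 1 library of each group (adjusted p = 0.8725). The anaphylatoxin receptor gene C3ar1 had at most 0.182 FPKM with GSK4112 and 0.256 FPKM in control.

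Complement genes respond to interferons and to inflammatory signals in other cells, and genes of these programmes were listed beside them. Of 15 listed interferon-induced genes 8 were tested. None of the 8 passed in limma, with or without the block or in limma-voom. Without the block 2 had an unadjusted p under 0.05 in limma, Tap1 (higher) and Bst2 (lower), beside 2065 of all 12181 genes. Bst2 was at 135, 128 and 138 FPKM with GSK4112 and at 179, 164 and 145 FPKM in control. B2m was at 186, 179.9 and 193 FPKM with GSK4112 and at 184, 140 and 129 FPKM in control. Among all settings run in limma, B2m was called higher without both replicate 1 libraries (adjusted p = 0.0492) and Tap1 with sample weights (0.0482). These 2 fits called 393 and 470 of all 12181 genes higher, against 50 as reported. No other gene of this list was called. Of 15 listed acute phase and NF-kB-induced genes 5 were tested, and the rest were below the filter. With the block 2 had an unadjusted p under 0.05 in limma, both lower, beside 3098 of all 12181 genes. None had one without it, and none of the 5 passed with or without the block. The most abundant of them, Nfkbia, was at 15.5, 23.8 and 25.5 FPKM with GSK4112 and at 20.7, 35.9 and 30.5 FPKM in control (adjusted p = 0.4602). Socs3 was next by its mean over all 6 libraries, at 3.58, 8.06 and 8.78 FPKM with GSK4112 and at 4.21, 6.61 and 9.27 FPKM in control (adjusted p = 0.9986), lowest in the replicate 1 library of each group.

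As a description over 6 libraries, which share group and replicate number, C1s1 followed C1ra with a Pearson r of 0.905 on log2(FPKM + 1) and Clu with -0.87. Among 7515 genes with a mean of at least 5 FPKM, those most like C1s1 were Gnai1 (0.995), Inpp5a (0.994) and Smtnl2 (0.994). Those most like C1ra were Poldip3 (0.980), Dlg3 (0.974) and Crip2 (0.970). For Clu they were Pih1d1 (0.996), B2m (0.995) and Emc3 (0.995), and for Cd55 Casp2 (0.997), Igfbp5 (0.992) and Sobp (0.990). For Cd59a they were Mgmt (0.965), Trappc5 (0.957) and Zmynd8 (0.950). With 6 points and this many genes, high values occur easily.

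**Figure D5:**
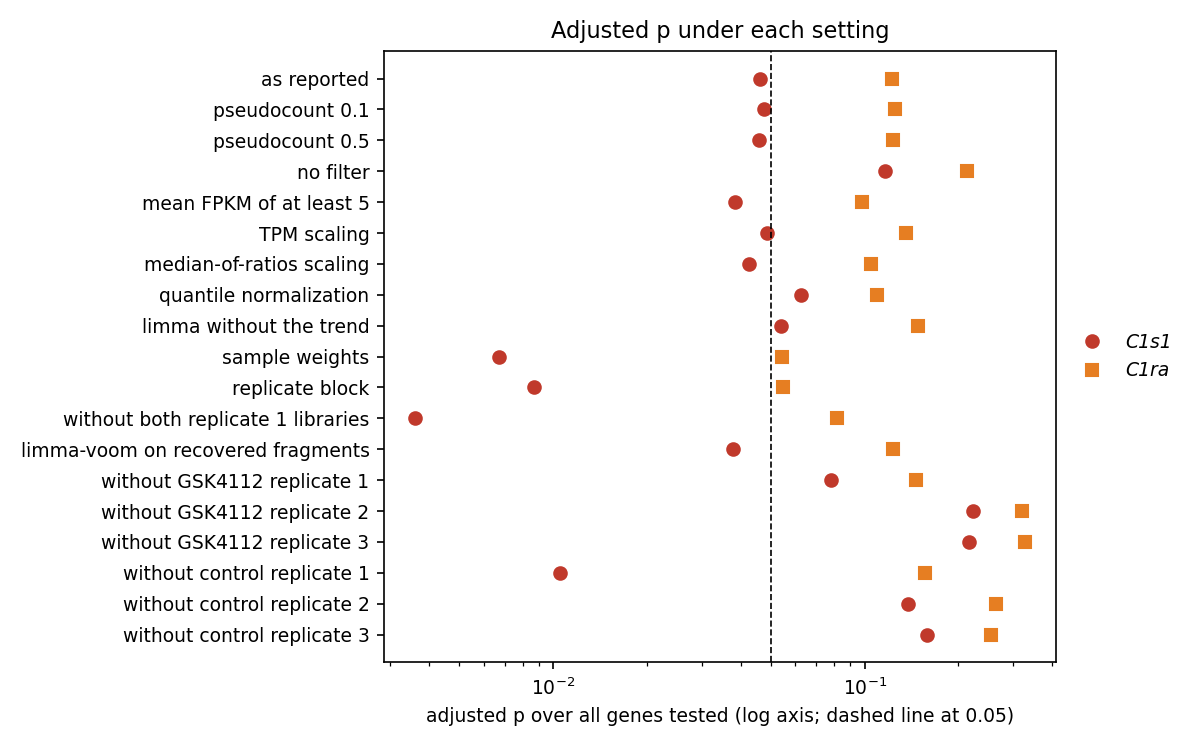
Adjusted p over all genes tested (horizontal log axis, dashed line at 0.05) of C1s1 and C1ra in the fit as reported and under 18 other settings. C1s1 ranges from 0.0036 to 0.222 and lies on both sides of the line, and C1ra is right of it in all.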

How the data were processed

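RNA of 6 libraries, 3 with GSK4112 and 3 controls, was grouped and numbered by title. The authors deposited FPKM values for 27151 Ensembl gene IDs, per the file headers. The build was GRCm38, per the submitters' processing notes. Aligner, counting, annotation and strand setting: not given in the sources used here, so overlapping genes cannot be told apart. Symbols and lengths came from GENCODE M21 (27098 IDs matched).

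Library totals were found for which 92.8 to 93.1% of values under 500 fragments were whole within 0.01. Testing used limma 3.58.1 (R 4.3.3) on log2(FPKM + 1), trend on, 2-sided, for mean FPKM of 1 or more, with Benjamini-Hochberg adjustment over 12181 genes. This scale understates the change of low genes. The fit was checked on simulated data with independent libraries and with changes larger than that of C1s1. That check does not cover deviations shared by libraries of the same replicate number. Single values had exact permutation tests (scipy 1.17.1), and similar transcripts were found with blastn.

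Members, lists and tests were chosen with earlier results of these data known. Named were all members, called complement genes or else the 2 most abundant per role, called genes or else the 2 most abundant of the interferon and acute phase lists, the top gene of each marker list and the 3 genes most like each member of mean FPKM 5 or more. Copies, neighbours and partners (C1s2, C1rb, C4a, C2, C1q, Cd55b, Masp2, C3ar1, Clstn3, Lpcat3, Emg1), Csmd1, Hsd17b1, Fst, Cyp11a1, Cd68, Tyrobp, Csf1r, Tap1, Itgb2, Ptprc, Adgre1 and Cd163 were added with values seen. An item of the lists is not reported here and is left out of their counts.

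Libraries of the same replicate number deviated together from their group means (correlations 0.665, 0.326 and 0.213, limit 0.1), so the numbers were taken as pairs, a reading of the data that no label states. GSK4112 replicate 2 correlated more with control replicate 3 (0.53), and GSK4112 replicate 3 more with control replicate 2 (0.357). The 18 alternatives varied pseudocount, filter, scaling, variance model, block, libraries and unit.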

Additional observations from a re-analysis of the deposited data

How the results depend on the processing

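The as-reported fit called 126 of all genes, 1 member (C1s1) and 0 of the other complement genes reported. Of these other genes 1 had an unadjusted p under 0.05 in limma, beside 2065 of all 12181 genes, and limma-voom called 0. Over all genes, 26 were called without a filter, 830 with sample weights, 839 with the replicate block and 856 without both replicate 1 libraries; leaving out single libraries gave 0 to 153. The count was 0 in limma without GSK4112 replicate 2 or 3 or control replicate 3, with 1224, 1318 and 1843 genes at an unadjusted p under 0.05, and 8 without control replicate 2. The share of rises was 50 of 126 as reported, 470 of 830 with sample weights and 39 of 144 under median-of-ratios scaling, which moved the median log2 change of all genes to 0.003, against 0.054 as reported.

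The count of members called was 0 without a filter, under quantile normalization and in limma without the trend. It was 0 to 1 when single libraries were left out. In each of the latter fits 2 or 3 of 6 members had an unadjusted limma p under 0.05. Of all 12181 genes, 1224 to 2305 had one in these fits. The count of other complement genes called was 1 with sample weights, 2 with the replicate block, 2 without both replicate 1 libraries and 0 to 1 when single libraries were left out. C1s1 kept its direction under all 18 alternatives and was called in 10, with log2 changes from -1.02 to -0.79 and adjusted p from 0.0036 to 0.222. C1ra was lower in all 18 and called in none (adjusted p 0.0543 to 0.3282). C1s2 was called in 4 of 17 and Masp1 in 2 of 18. Cd55 (-0.106 to 0.623 when single libraries were left out) changed sign without GSK4112 replicate 2 (-0.052), GSK4112 replicate 3 (-0.003) or control replicate 1 (-0.106), and Serping1 (-0.002 to 0.335) without control replicate 3. Cd59a and Clu kept their signs and were called in none. Apart from C1s2 and Masp1, the replicate block changed no call of a complement gene reported here. The causes of the lost calls were not tested. C4b and Cfb had few fragments, so that no change was detectable, and why they had few was not tested.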
